A study of Mus musculus with 3 samples.

Results

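The KI library of mouse testicular cells was compared directly with the KO library across germ cells grouped by their own transcripts. GRTH, also named DDX25, is the DEAD-box RNA helicase encoded by Ddx25. KO mice lack it, while KI mice bear the human GRTH gene with the R242H change and, per the study, retain the non-phosphorylated protein and lose the phosphorylated form. Both protein forms are thus missing in KO and 1 of them in KI, and the comparison asks what differs between the germ cell transcriptomes of these animals. A wild-type (WT) library served only as a reference level.

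Testes of C57BL/6 mice were dispersed by collagenase and trypsin, passed through strainers and loaded at 7000 cells per sample for droplet sequencing of transcript 3' ends. The labels give an age of 8 weeks and 1 mouse per genotype, whereas the methods of the study describe an age range and pooled testes from a pair of mice. There was 1 library per genotype, so no difference below has a replicate check and no p-value was computed. KI and KO differ from each other by line and by animal as well as by protein form, and these cannot be told apart. Whether transcripts of the human gene in KI were counted on the mouse gene was not analysed here.

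Barcodes with at least 4000 UMIs (unique molecular identifiers, each 1 counted transcript molecule), over 500 genes and under 10% mitochondrial UMIs were kept. This left 3130 barcodes of KI and KO out of 6424 in all 3 libraries, 2058 from KO and 1072 from KI, with 3294 from WT. The kept barcodes held 50.9% of the 91388296 UMIs of KO and 57.2% of the 73150373 UMIs of KI, and their median depth was 15131 UMIs in KO and 25808.5 in KI. UMIs were summed per library within 4 bins and scaled to CPM, the usual rate of a gene's UMIs over all UMIs of its bin and library. The bins were set by the share of Prm1, Prm2, Tnp1 and Tnp2, the protamine and transition protein genes that package the spermatid nucleus, and by Piwil1, a piRNA-binding Argonaute protein of pachytene spermatocytes and round spermatids. Below a share of 0.5%, barcodes with Piwil1 at 0.01% of UMIs or more formed the spermatocyte-range bin and the others the Piwil1-low bin. Shares from 0.5% to under 2% formed the intermediate bin, and shares of 2% or more the protamine-rich bin. These 5 genes are therefore not results here.

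In the testis, germ cells pass from spermatogonia through meiosis to round spermatids, which build an acrosome and a flagellum and replace histones by transition proteins and protamines. Transcription ends before this remodelling does, so spermatids store many messenger RNAs in ribonucleoprotein particles and translate them later. DEAD-box helicases unwind RNA and remodel such particles, and GRTH has been linked to nuclear export of germ cell messenger RNAs, to the chromatoid body and to polyribosomes.

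The R242H change lies in the coding sequence of Ddx25. In the GRCm38 reference the matching mouse arginine is codon 243 of 484, in exon 8 of 12. The 30 bases of codons 238 to 247 lie at chr9:35551347-35551376 on the minus strand. They are shown because they hold that arginine and, 3 codons upstream, the threonine whose phosphorylation the change removes in the account of the study. They are the mouse reference sequence, not the KI allele, and capitals mark the threonine codon ACA (codon 240, human 239) and the arginine codon CGT (codon 243, human 242).
Ddx25: gatttgACAaagatcCGTgtgtttgtcctg

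The bins are ranges along a continuum and not cell types. The spermatocyte-range bin held 738 KO barcodes (35.9% of those kept, exact 95% binomial interval 33.8 to 38.0%) and 332 KI barcodes (31.0%, 28.2 to 33.8%). The Piwil1-low bin held 981 (47.7%, 45.5 to 49.9%) and 617 (57.6%, 54.5 to 60.5%), the intermediate bin 83 (4.03%) and 24 (2.24%), and the protamine-rich bin 256 (12.4%, 11.04 to 13.9%) and 99 (9.24%, 7.57 to 11.1%). In WT the protamine-rich bin held 1658 barcodes, 50.3% of those kept. These intervals, like all below, cover counting error only. The UMI minimum can set such shares, since it keeps deeper barcodes and the libraries differ in depth: median depth in the spermatocyte-range bin was 29044 UMIs in KO and 64999 in KI, and in the Piwil1-low bin 12099 and 23152.

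Pachytene and late spermatid markers followed the bins in both libraries, but the Piwil1 limit did not separate the stages sharply. Pachytene markers summed to 12182 CPM in KO and 11982 CPM in KI in the spermatocyte-range bin. In the Piwil1-low bin they still summed to 9764 and 8867 CPM. Late spermatocyte markers summed to 2019 and 1827 CPM in the spermatocyte-range bin and were higher in the Piwil1-low bin, at 2606 and 2325 CPM. Late spermatid markers summed to 15912 and 15861 CPM in the protamine-rich bin, against 25705 CPM in WT, and the median barcode there held 7.87% protamine and transition protein UMIs in KO, 7.80% in KI and 28.9% in WT. The Piwil1-low bin was mixed, with pachytene, early round spermatid and late spermatid markers all detected in it. Close to an edge of their bin lay 93 of 738 KO and 44 of 332 KI barcodes in the spermatocyte-range bin and 126 of 981 and 76 of 617 in the Piwil1-low bin.

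Several properties other than genotype moved with the libraries. Leydig cell markers in the Piwil1-low bin summed to 316 CPM in KO, 565 in KI and 191 in WT, with 9 of 9 listed genes detected in each, and macrophage markers to 105, 410 and 34.3 CPM, with 15 of 15 detected in KO and KI. Barcodes with at least 0.5% of UMIs from somatic markers made up 36 of the KO and 43 of the KI barcodes of that bin. In the intermediate bin, stromal markers summed to 55.4 CPM in KO and 320.0 in KI, and 1 barcode carried 26.5% of all KI UMIs there. Barcodes of 200 to 500 UMIs, too small to be kept and used here as a measure of free RNA, carried 1.38% protamine and transition protein UMIs in KO and 1.77% in KI. Scrublet, which marks barcodes that look like mixtures, marked 40 KO barcodes (1.94%) and 8 KI barcodes (0.746%). They were not removed. KI and KO shared 2 kept barcode sequences, KI and WT 1, and KO and WT 0.

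The targeted gene separated the libraries as their labels say. Ddx25 (ENSMUSG00000032101, chromosome 9, 35536647 to 35558528, minus strand) gave 10, 2, 0 and 1 UMIs in KO in the spermatocyte-range, Piwil1-low, intermediate and protamine-rich bins, against 1828, 1820, 63 and 336 in KI and 2899, 2692, 356 and 819 in WT. The KI level was 88.9 CPM (exact 95% Poisson interval 84.9 to 93.1), 107 CPM (102 to 112), 117 CPM (89.5 to 149) and 90.3 CPM (80.9 to 101) in the same order. KO lay at 0.427, 0.126, 0 and 0.171 CPM, and WT at 213, 188, 138 and 41.7 CPM. The KI level was thus nearly even over the bins and below WT in the first 3, while in the protamine-rich bin it stood above WT. In that bin WT lay below both KI and KO for 3606 of all 4650 measured genes, so a KI level above WT was common there. At least 1 Ddx25 UMI was found in 81.9%, 68.9%, 45.8% and 71.7% of KI barcodes and in 1.36%, 0.204%, 0% and 0.391% of KO barcodes. Free RNA carried the same contrast: the small barcodes held 23 Ddx25 UMIs in KO (1.97 CPM) and 2133 in KI (119 CPM). Over all bins, kept barcodes lay below the free RNA of their own library in KO (0.279 CPM), in KI (96.7 CPM) and in WT (135 against 160 CPM). This order therefore does not set KO apart. Whether the 13 UMIs of KO came from its cells was not tested, and no expression was read from them.

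Beyond Ddx25, the KI and KO transcriptomes lay close together. A gene was called where the log2 ratio of KI over KO, on CPM with a pseudocount of 1, was at least 1 in size, which is 2-fold, among genes with a mean of KI and KO of at least 25 CPM. In the spermatocyte-range bin 5 of 5521 genes (0.0906%) were 2-fold higher in KI and 16 (0.29%) 2-fold lower. The Piwil1-low bin had 26 higher (0.431%) and 9 lower (0.149%) of 6038, and the protamine-rich bin 20 higher (0.43%) and 23 lower (0.495%) of 4650. Of genes measured in these 3 bins, 99.6%, 99.4% and 99.1% stayed within 2-fold. The intermediate bin, with 24 KI barcodes, had 159 higher (2.83%) and 127 lower (2.26%) of 5611. The middle 90% of log2 ratios ran from -0.20 to 0.27, from -0.34 to 0.45, from -0.74 to 0.79 and from -0.40 to 0.44 in order of the bins, with medians of 0.02, 0.01, -0.02 and -0.01. With TMM scaling in place of totals, the Piwil1-low median moved to -0.11 and the split of 26 higher and 9 lower became 20 and 15.

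**Figure D1:**
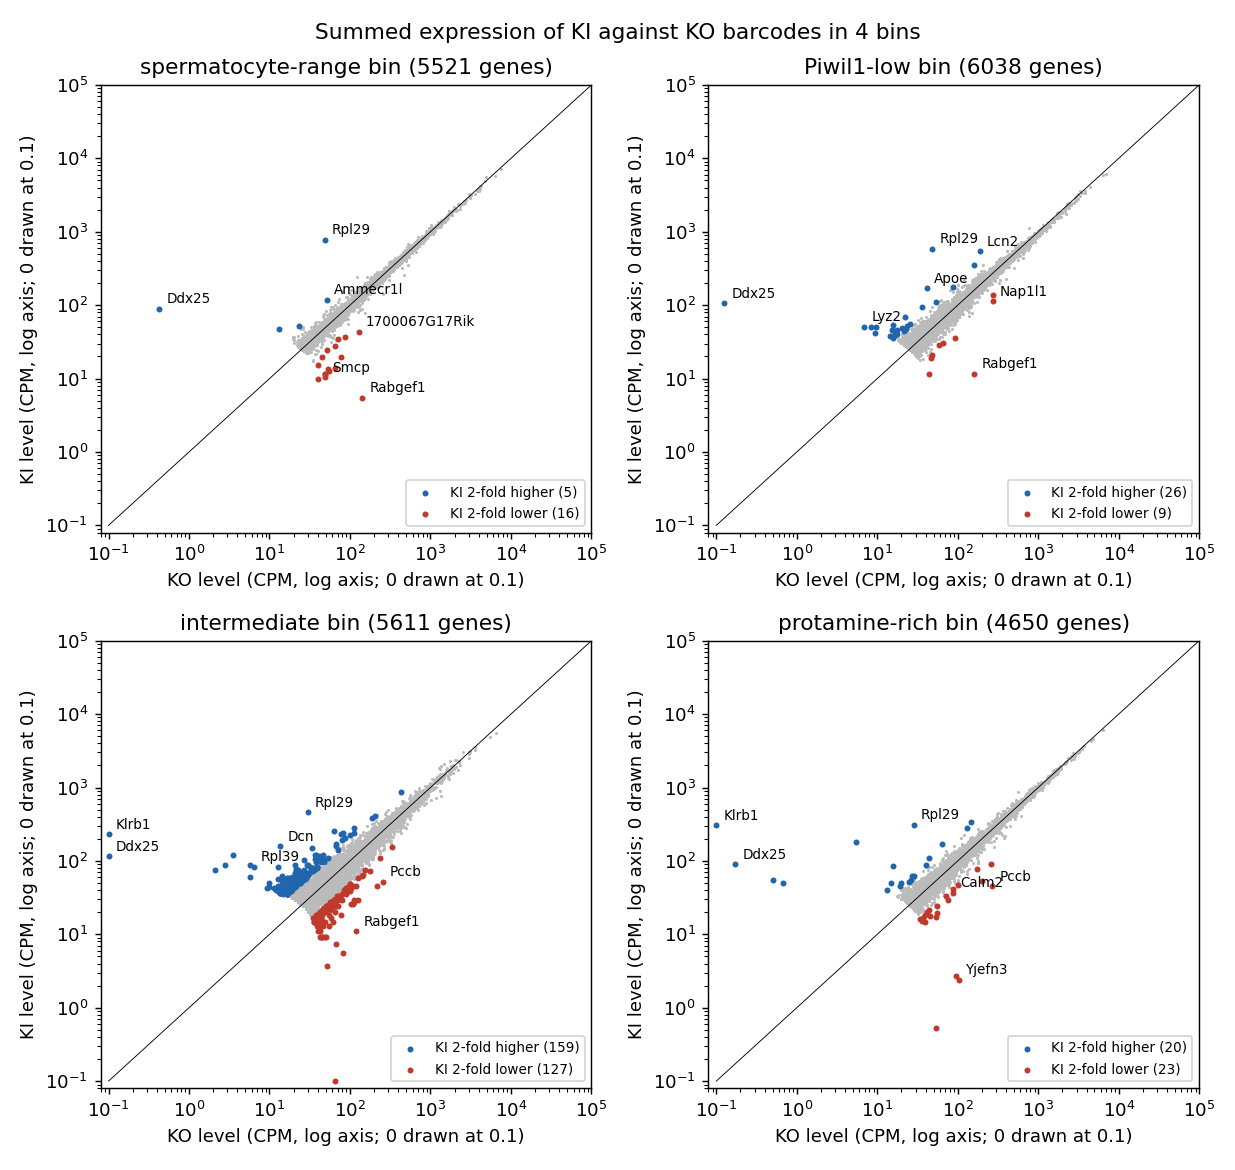
Summed level of each measured gene in KI (vertical) against KO (horizontal) in the 4 bins, in CPM on log axes, with genes 2-fold higher in KI in blue and 2-fold lower in red. The spermatocyte-range, Piwil1-low and protamine-rich clouds are narrow, with 21, 35 and 43 coloured genes, while the intermediate cloud is wider.

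A small set of genes was apart in several bins. Ddx25 and Rpl29 were 2-fold higher in KI in all 4 bins and 4930471D02Rik in 3, while Rabgef1 was 2-fold lower in all 4, and 1700067G17Rik and Pccb in 3. A further 10 genes were higher in 2 bins and 9 lower in 2, against 179 and 147 in 1 bin. The calls of different bins come from the same 2 libraries and are not independent of each other.

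Rpl29, a protein of the large ribosomal subunit (chromosome 9, 106429454 to 106431568, plus strand), had 48.3 CPM in KO, 779 CPM in KI and 55.8 CPM in WT in the spermatocyte-range bin. In the Piwil1-low bin it had 48.1, 588 and 54.6 CPM in the same order, in the intermediate bin 29.8, 461 and 44.9, and in the protamine-rich bin 28.4, 311 and 52.7. KO and WT thus lay together and KI 10.98 to 16.1 times above KO, with 95% intervals of 15.2 to 17.1 for the highest ratio and 9.32 to 12.99 for the lowest. Of the other ribosomal protein genes measured, none passed 2-fold in the spermatocyte-range, Piwil1-low or protamine-rich bins, where 77, 81 and 73 genes of the list were measured with medians of 0.05, 0.03 and -0.01. Of the 79 in the intermediate bin 6 were 2-fold higher, Rpl39, Rps4x, Rpl10, Rpl10a and Rpl14 besides Rpl29, and 70 lay above 0 with a median of 0.19 on the log2 scale (-0.19 to 0.27 over the alternative settings, so the direction changed), beside 2.83% of all genes 2-fold higher. Of the KI UMIs of those 5 genes in that bin, 48.1% (Rpl10) to 72.0% (Rpl10a) came from 1 barcode. Rpl29 has near-identical pseudogene copies, so its count is uncertain where reads could be split between them.

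Rabgef1, an exchange factor for the endosomal GTPase Rab5, had 143 CPM in KO, 5.496 in KI and 65.7 in WT in the spermatocyte-range bin and 160.2, 11.6 and 82.2 CPM in the Piwil1-low bin. It had 119, 11.1 and 69.2 CPM in the intermediate bin and 94.9, 2.69 and 25.5 CPM in the protamine-rich bin. Here the 3 libraries were all apart, with WT between KO and KI. KO stood 25.9 (21.5 to 31.6), 13.8 (11.9 to 16.01), 10.7 (4.80 to 29.5) and 35.3 (19.0 to 74.0) times above KI in order of the bins.

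Pccb, a subunit of the mitochondrial propionyl-CoA carboxylase, climbed across the bins in KO, with 5.47, 44.4, 255 and 269 CPM. KI had 1.12, 11.4, 51.8 and 45.2 CPM and WT 4.64, 44.0, 196 and 76.9 CPM. The gap held along the whole course: KO was 4.89 (3.12 to 7.99), 3.90 (3.32 to 4.60), 4.92 (3.35 to 7.51) and 5.95 (5.08 to 7.02) times above KI, the first value at a level below the 25 CPM minimum.

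Klrb1, of the lectin-like receptor family of natural killer cells, ran the other way. KO had 0 UMIs in every bin, whereas KI had 17, 433, 124 and 1142 UMIs (0.827, 25.4, 229 and 307 CPM) and WT 0.589, 5.36, 54.9 and 82.3 CPM. Set against a floor of 3 UMIs in KO, KI was at least 6.45, 135, 108 and 599-fold higher. Klrb1 appeared in 85.9% of KI barcodes of the protamine-rich bin and 0% of KO barcodes. In the barcodes of 200 to 500 UMIs it had 2 UMIs in KO and 2195 in KI, so the gap was also present in free RNA.

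The non-coding transcript 4930471D02Rik was apart from the Piwil1-low bin onwards. It had 0.556, 8.31, 3.55 and 0.684 CPM in KO, 0.778, 50.7, 120.2 and 50.6 in KI and 2.06, 43.0, 59.9 and 13.9 in WT. KI and WT thus lay nearer to each other, and the KI to KO ratio was 6.10 (5.07 to 7.38) in the Piwil1-low bin and 73.9 (28.4 to 274) in the protamine-rich bin. Another non-coding transcript, 1700067G17Rik, was highest in the spermatocyte-range bin, with 128 CPM in KO, 43.6 in KI and 142 in WT. It had 93.3, 35.3 and 124 CPM in the Piwil1-low bin, and KO was 2.93 (2.72 to 3.16) and 2.64 (2.399 to 2.91) times above KI.

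**Figure D2:**
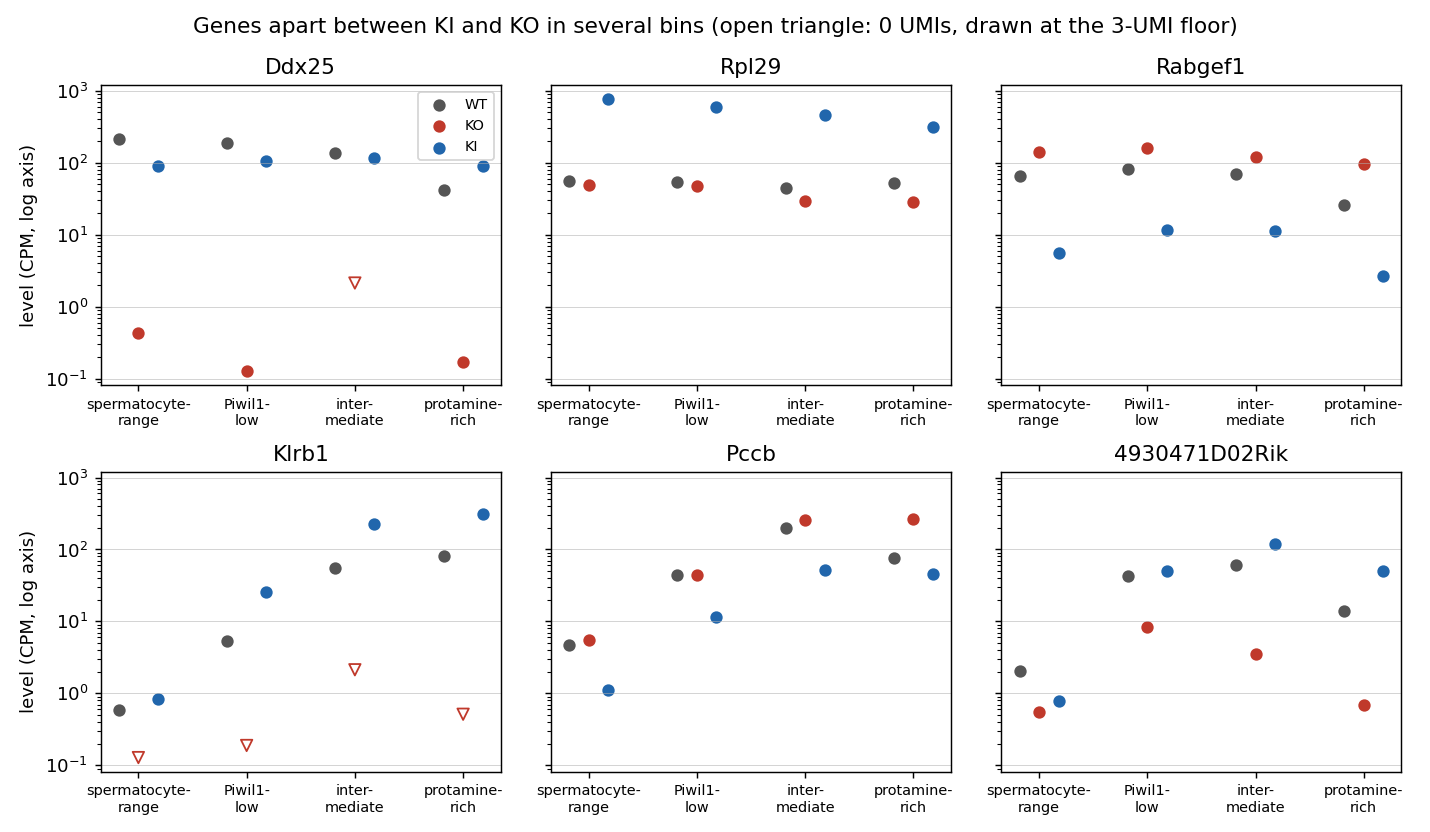
Level of 6 genes in WT (grey), KO (red) and KI (blue) in the 4 bins, in CPM on a log axis, with an open triangle where a library had 0 UMIs, drawn at the level of 3 UMIs. Ddx25 and Klrb1 are near or at 0 in KO, Rpl29 is high in KI alone, and Rabgef1 and Pccb are low in KI.

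In the spermatocyte-range bin, the genes highest in KI after Rpl29 and Ddx25 were few and moderately apart. The 3 others past 2-fold were 1300017J02Rik, with 13.2 CPM in KO, 46.8 in KI and 14.3 in WT, 4833420G17Rik, with 23.1, 52.5 and 41.5 CPM, and Ammecr1l, with 51.5, 119 and 88.4 CPM and a log2 ratio of 1.19 (1.11 to 1.31), or 0.95 with a Piwil1 limit of 0.03%. Ide, the insulin-degrading enzyme, had 123 CPM in KO, 241 in KI and 127 in WT and a log2 ratio of 0.97. Wdfy1, an endosomal adaptor protein, had 81.8, 157 and 84.6 CPM and a log2 ratio of 0.93. Skiv2l2, the helicase that feeds RNA to the nuclear exosome, had 50.9, 82.2 and 65.7 CPM and a log2 ratio of 0.68. For Ide and Wdfy1 it was KI that stood apart from the other two libraries. Intervals of log2 ratios are of the ratio with no pseudocount.

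Of the 16 genes lower in KI in this bin, 4 belong to the spermatid lists. Smcp, a protein of the sperm mitochondrial capsule, had 49.4 CPM in KO, 10.4 in KI and 89.7 in WT, a log2 ratio of -2.14 (-2.46 to -2.04). Hils1, a linker histone of spermatids, had 48.4, 11.5 and 47.3 CPM (-1.98), Prm3 40.5, 9.87 and 50.9 CPM (-1.93), and Gsg1, a germ cell membrane protein, 65.9, 27.6 and 73.8 CPM (-1.23). KO and WT lay on one side and KI on the other for each of them. Hils1 and Prm3 were the 2 of 11 spermatid chromatin genes past 2-fold lower in this bin, where 0.29% of all genes were. Smcp and Gsg1 were the 2 of 10 outer dense fibre and fibrous sheath genes. The lists as a whole were not lower to this extent. Of the 11 chromatin genes 7 lay above 0, with a median of 0.09, and of the 10 sheath genes 3 did, with a median of -0.11. Acrosome genes had 0 of 18 members past 2-fold lower here and a median of -0.05. WT was nearer to KO for 16 of the 16 lower genes, against 2662 of all 5521 measured genes.

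These late transcripts were also abundant in free RNA, and the libraries differed in depth. In the barcodes of 200 to 500 UMIs, Smcp had 1268 CPM in KO and 1555 in KI, and Hils1 1220 and 1384 CPM. Free RNA at the median of such barcodes amounted to 1.15% of the KO and 0.483% of the KI sum of the bin. KI barcodes were deeper, and the median small barcode held 364 UMIs in KO and 299 in KI. This amount cannot exceed 500 UMIs by its definition, and KO had 37261 barcodes of at least 500 UMIs against 9927 in KI. Whether free RNA in KO was larger than the amount taken off was not tested. Taking this free RNA off left Smcp at 35.3 CPM in KO and 2.92 in KI, Hils1 at 34.8 and 4.87, Prm3 at 28.9 and 4.60, and Gsg1 at 56.2 and 23.0. All 16 genes were still 2-fold apart by their ratio, although only 9 genes then met the 25 CPM minimum. After every barcode was thinned to 4000 UMIs and the bins were formed again, only 4 of the 16 were, and Smcp stood at -0.65 and Hils1 at -0.51. Up to 14.7% of the KO UMIs of Prm3 came from 1 barcode, and without the barcodes marked by Scrublet 9 genes were 2-fold lower. Early round spermatid markers, summed, had 272 CPM in KO and 129 in KI in this bin. The part of mixed barcodes in the result was not tested further.

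Among the other lower genes of this bin, 1700003F12Rik had 78.0 CPM in KO, 19.8 in KI and 79.4 in WT (-1.92) and was higher in KO in each of the other 3 bins than in this one. It is named here after its values were seen. Tex264, a receptor that delivers endoplasmic reticulum to autophagosomes, had 86.8 CPM in KO, 37.2 in KI and 77.0 in WT (-1.20, -1.35 to -1.10). BC049715 had 71.5, 34.7 and 60.4 CPM (-1.02). Like Smcp and Hils1 these genes fell short of 2-fold once thinned, with 1700003F12Rik at -0.39, Tex264 at -0.56 and BC049715 at -0.79, and BC049715 also under 4 other settings. Gpr62, an orphan receptor, had 153, 78.4 and 116 CPM (-0.96), and Nap1l1, a histone chaperone, 474, 254 and 339 CPM (-0.90). Gpr62 and Nap1l1 fell short of 2-fold here.

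In the Piwil1-low bin, the 4 genes highest in KI after Ddx25 and Rpl29, among those named by rule, are known from somatic cells. Apoe, the apolipoprotein secreted by macrophages, had 41.7 CPM in KO, 170 in KI and 15.6 in WT, a log2 ratio of 2.00 (1.90 to 2.15). Lcn2, an iron-scavenging lipocalin, had 187, 545 and 96.0 CPM (1.54), Insl3, a Leydig cell hormone, 36.1, 94.0 and 22.3 CPM (1.36), and Ptgds, a prostaglandin synthase, 160 CPM in KO, 352 in KI and 119 in WT (1.13). All 4 were highest in KI and lowest in WT, in the order of the summed Leydig and macrophage markers. Apoe is itself a listed macrophage marker and Insl3 a listed Leydig marker, so for them this order is not a separate observation. Each of the 4 was found in few barcodes: Apoe in 3.47% of KO and 7.78% of KI barcodes. Without the barcodes holding at least 0.5% somatic UMIs, the log2 ratios were -0.03 for Apoe, 0.48 for Lcn2, 0.21 for Insl3 and 0.05 for Ptgds. UMIs of Apoe and Insl3 count towards that 0.5%, so their fall was in part set by the limit itself. Of the 26 higher genes, 11 were still 2-fold apart.

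None of those 11 is a listed somatic marker, and the limit by its design takes such markers out. Besides Ddx25, Rpl29 and 4930471D02Rik they were Mical3, Fat3, Ammecr1l, 4930461G14Rik, Myo1e, L3mbtl4, Cxcr5 and Ide. Mical3, an actin-oxidising enzyme, stood at 2.26 with all barcodes and 2.60 without the somatic ones. Ide had 88.5 CPM in KO and 180 in KI (1.01), so this enzyme was higher in KI in both bins of low protamine share.

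The 9 lower genes of this bin were all 2-fold lower with and without the somatic barcodes. Nap1l1 had 272 CPM in KO, 113 in KI and 167 in WT (-1.25, -1.34 to -1.18). Zmynd10, which helps assemble axonemal dynein arms, had 278, 136 and 223 CPM (-1.03, -1.10 to -0.96), and it fell just short of 2-fold under 8 of the 20 alternative settings, with -0.90 the nearest to 0. Next to these, Gpr62 had 138, 72.1 and 116 CPM (-0.93) and 4933433G15Rik 151, 79.4 and 154 CPM (-0.92). WT lay nearer to KO for 6 of the 9 lower and 22 of the 26 higher genes, against 3038 of all 6038 measured.

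**Figure D3:**
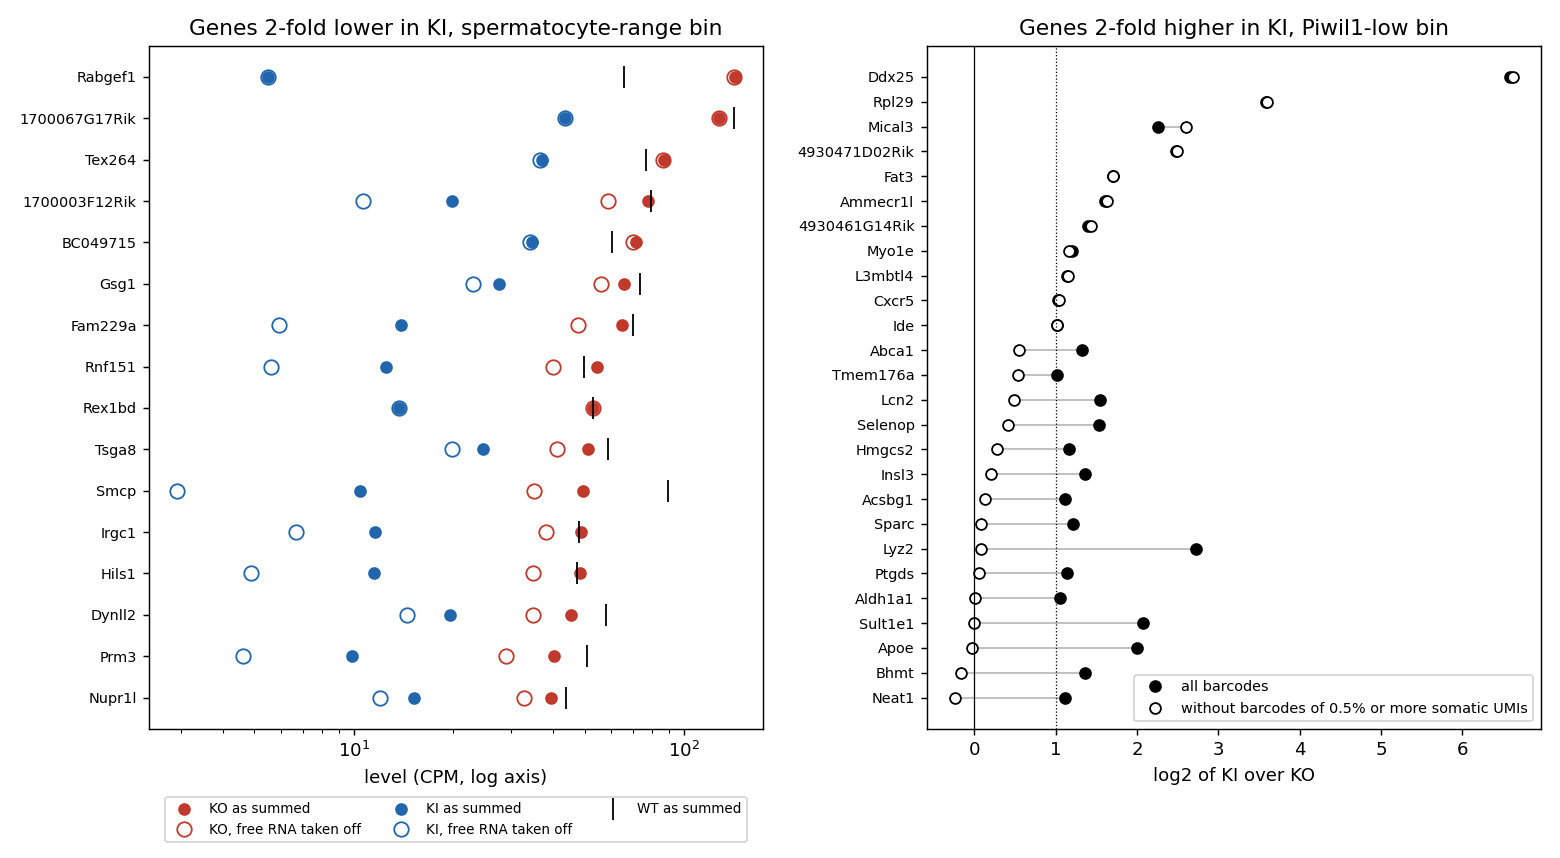
Left, level in CPM (log axis) of the 16 genes 2-fold lower in KI in the spermatocyte-range bin, as summed (filled) and with the free RNA profile taken off (open), for KO (red) and KI (blue), with WT as a bar. Right, log2 ratio of KI over KO of the 26 genes 2-fold higher in KI in the Piwil1-low bin with all barcodes (filled) and without those of 0.5% or more somatic UMIs (open), 15 of which drop below the dotted 2-fold line.

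In the protamine-rich bin, among genes with a mean of KI and KO of at least 50 CPM, Klrb1, C030014I23Rik and Rpl29 led those higher in KI. C030014I23Rik had 5.47 CPM in KO, 179 in KI and 7.12 in WT and was found in 10.5% of KO and 82.8% of KI barcodes, a log2 ratio of 4.80 (4.52 to 5.59). Cd3d, a T cell receptor chain gene, had 15.9 CPM in KO, 86.6 in KI and 120.1 in WT (2.37). Dscaml1, an adhesion molecule gene, had 63.6, 172 and 147 CPM (1.42, or 0.93 with both parts of the bin weighted equally), and Gm26763 44.1, 109 and 68.5 CPM (1.29). C030014I23Rik was thus high in KI alone, whereas for Cd3d and Dscaml1 it was KO that stood low. Places of WT in this bin have to be read beside the 3606 of 4650 measured genes for which WT was below both. Tekt5, a tektin of the flagellar axoneme, had 130 CPM in KO, 281 in KI and 77.9 in WT (1.11, 0.98 to 1.25). It was also 2-fold higher in the intermediate bin. In the spermatocyte-range and Piwil1-low bins it stood at 1.68 and 1.06, at levels below the 25 CPM minimum.

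Yjefn3 showed the widest gap among the lower genes named by rule in this bin. It had 102 CPM in KO, 2.42 in KI and 239 in WT, and was found in 74.6% of KO and 9.09% of KI barcodes (-4.92, -6.54 to -4.47). Gm4665 had 198, 52.7 and 152 CPM (-1.89), Grin2b, an NMDA receptor subunit gene, 263, 90.6 and 101 CPM (-1.53), and Gm14329 75.7, 29.6 and 15.6 CPM (-1.33). Gm4665, Grin2b and Gm14329 were also past 2-fold lower in the intermediate bin, at -3.64, -1.90 and -3.51. The same held in the spermatocyte-range and Piwil1-low bins, at levels below the 25 CPM minimum, with Grin2b at -2.90 and -3.54. WT was nearer to KO than to KI for Yjefn3 and Gm4665, and nearer to KI for Grin2b and Gm14329. For Yjefn3 all libraries were apart, with WT more than 2-fold above KO (239 against 102 CPM).

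Calm2, one of the calmodulin genes, had 88.0 CPM in KO, 36.8 in KI and 93.6 in WT (-1.23, -1.54 to -0.98), but stood at -0.41 once barcodes were thinned, -0.64 without the top 5% of barcodes by UMIs, -0.81 with bin edges of 1% and 4% and -0.86 without the barcodes marked by Scrublet. Nxt1, the partner of messenger RNA export receptors, had 37.4, 16.9 and 26.6 CPM (-1.10), and -1.30 once thinned, but -0.97 without the largest barcode of each library. Hsp90b1, a chaperone of the endoplasmic reticulum, had 33.8, 16.4 and 39.8 CPM (-1.001) and was at -0.50 once thinned. Nxt1 was the only one of the 7 measured export genes past 2-fold in this bin.

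The intermediate bin rested on few KI barcodes, and its wider spread has to be read with that. Dcn, the stromal proteoglycan decorin, had 13.5 CPM in KO, 159 in KI and 0 in WT (3.47), and 100% of its KI UMIs came from 1 barcode. Rpl10a had 33.4, 152 and 66.9 CPM (2.15), with 72.0% of the KI UMIs from 1 barcode. Synaptonemal complex and axis genes gave 6 of 16 members 2-fold higher, beside 2.83% of all genes, among them Tex101 with 63.2, 255 and 58.0 CPM (2.00) and Hormad1 with 82.3, 240.4 and 46.4 CPM (1.54). For Tex101, 97.1% of the KI UMIs came from 1 barcode and for Hormad1 96.2%, so that these counts describe single barcodes more than the bin. Dazl and Mov10l1, genes of RNA regulation in early germ cells, were likewise past 2-fold with 83.1% and 96.9% of KI UMIs from 1 barcode.

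Among genes with a mean of at least 50 CPM, 4 more were lowest in KI in the intermediate bin after Rabgef1 and Pccb. Magi2, a scaffold protein gene, had 214 CPM in KO, 46.2 in KI and 265 in WT (-2.19, -2.86 to -1.62). Nmnat3, of mitochondrial NAD synthesis, had 125, 29.6 and 94.7 CPM (-2.04), Pabpc6, a poly(A)-binding protein of spermatids, 109, 25.9 and 124 CPM (-2.03), and Gm41335 111, 27.7 and 167 CPM (-1.97). KO and WT lay well above KI for each. Each fell short of 2-fold under some settings: Pabpc6 was at -0.53 once thinned, Gm41335 at -0.95 once thinned, -0.93 from 2000 UMIs on and -0.83 with bin edges of 0.25% and 1%, Magi2 at -0.95 from 2000 UMIs on, and Nmnat3 at -0.82 with those edges. Without the largest barcode of each library 151 of the 159 higher and 90 of the 127 lower genes were still 2-fold apart. That barcode is the largest by total UMIs and need not be the one that held most UMIs of a given gene. These counts therefore do not show that the calls rest on several barcodes.

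For the gene lists of processes GRTH has been linked to, counts of members past 2-fold stand against the small shares of all genes given above, under 1% in each of these 3 bins in both directions together, so that a count of 0 is what those shares give. Of the DEAD-box helicases of germ cells, 17 were measured in the spermatocyte-range bin, 16 in the Piwil1-low bin and 8 in the protamine-rich bin, and Ddx25 was the only member past 2-fold in these bins, with medians of 0.15, 0.02 and 0.06 beside all-gene medians of 0.02, 0.01 and -0.01. The nearest to 2-fold below 0 were Ddx52 in the Piwil1-low bin, with 38.5 CPM in KO and 29.1 in KI (-0.39), and Ddx17 in the protamine-rich bin (-0.13). Chromatoid body and piRNA genes, which hold and process stored RNA, had 0 of 21, 0 of 19 and 0 of 9 members past 2-fold in these bins. In the spermatocyte-range bin 20 of the 21 lay above 0 with a median of 0.14, between Gtsf1 at -0.09 and Asz1 at 0.36. Messenger RNA export genes had 0 of 18 and 0 of 16 in the first and second bins. In the intermediate bin, where 2.83% of all genes were 2-fold higher, 4 of 14 helicases were, Ddx25, Ddx39, Ddx39b and Mov10l1, and 2 of 16 chromatoid body and piRNA genes, Piwil2 and Mov10l1. Single KI barcodes gave 84.8% of the Ddx39 UMIs, 81.8% of those of Ddx39b and 86.5% of those of Piwil2.

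Genes of messenger RNA storage and translation control, such as those of poly(A)-binding and Y-box proteins, had 0 of 23, 0 of 23 and 0 of 19 past 2-fold, with medians of 0.07, 0.06 and -0.03. Paip2b, an inhibitor of poly(A)-binding protein, was the highest in the protamine-rich bin, with 84.9 CPM in KO and 128 in KI (0.59). Translation initiation factors likewise had 0 of 39, 0 of 37 and 0 of 35, with Eif4g1 the highest in the Piwil1-low bin (28.1 CPM in KO and 47.6 in KI, 0.74).

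In the protamine-rich bin, where 0.43% of all genes were 2-fold higher and 0.495% lower, the lists of spermatid programmes had few or no members past 2-fold. Acrosome genes had 0 of 41 members past 2-fold and a median of -0.07, with Spata16, of Golgi-derived acrosome assembly, the lowest at 95.7 CPM in KO and 65.1 in KI (-0.55). Outer dense fibre and fibrous sheath genes had 0 of 22 (median -0.03), genes of testis-specific serine kinases 0 of 5, sperm glycolysis genes 0 of 18, CREM pathway and spermatid transcription factors 0 of 16 and spermatid chromatin genes 0 of 13. Axoneme genes had 1 of 28, Tekt5, and a median of -0.15, with Dnah17 the lowest at 56.9 CPM in KO and 32.5 in KI (-0.79). In the Piwil1-low bin the acrosome list sat a little above 0, with 35 of 45 members above and a median of 0.16, and Prss55 was its highest member (26.4 CPM in KO and 40.0 in KI, 0.58). The median of the list ran from 0.02 to 0.27 over the alternative settings. Early round spermatid markers in that bin summed to 2342 CPM in KO and 2687 in KI, and late spermatid markers to 3627 and 3997. The part of the mixture of stages was not tested. The other way round, 35 of 45 acrosome genes lay below 0 in the intermediate bin (median -0.13, with Spam1 past 2-fold at -1.13) and 28 of 41 in the protamine-rich bin. These medians changed sign with the setting, from -0.18 to 0.36 and from -0.16 to 0.01. In the intermediate bin 2.83% of all genes were 2-fold higher and 2.26% lower. Of the 36 axoneme genes measured in the intermediate bin, 32 lay below 0 (median -0.25, -0.38 to -0.02 over the settings), with Dnah12, Dnah14 and Dnah17 past 2-fold lower and Tekt5 higher. Tssk5, at -2.11, was the 1 of 6 Tssk genes past 2-fold there.

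Lists of meiosis, energy metabolism and quality control had few members past 2-fold outside the intermediate bin. Meiotic division genes in the Piwil1-low bin had 18 of 23 members below 0 and a median of -0.16, with Cdk1, the mitotic kinase, the lowest at 94.3 CPM in KO and 60.9 in KI (-0.62). Late spermatocyte markers in that bin summed to 2606 CPM in KO and 2325 in KI, and the part of the mixture of stages was not tested. Nuclear genes of oxidative phosphorylation had 65 of 78 below 0 and a median of -0.12 in that bin, beside a median of 0.01 for all genes. In the intermediate bin, where 2.83% of all genes were 2-fold higher and 2.26% lower, 2 of 15 meiotic division genes were lower, Aurka and Pttg1, both at -1.26, and 3 of 73 of these nuclear genes higher, Ndufa4 the most at 2.05. Heat shock and chaperone genes had 0 of 17, 0 of 20, 0 of 20 and 0 of 18 past 2-fold in the 4 bins. Endoplasmic reticulum stress genes had Hsp90b1 alone past 2-fold, and apoptosis genes Birc2 alone, in the intermediate bin (46.1 CPM in KO and 22.2 in KI). Immediate early genes had 0 of 3 in the Piwil1-low, 0 of 5 in the intermediate and 0 of 4 in the protamine-rich bin, and PKA signalling genes Akap9 alone, in the intermediate bin. Proteasome genes were past 2-fold in the intermediate bin alone, with 2 of 29 higher beside the 2.83% of all genes, and of the 3 nuclear-retained RNAs measured in the Piwil1-low bin Neat1 was, at 1.11 with all barcodes and -0.24 without the somatic ones. Spermatogonial genes had Dazl alone, in the intermediate bin, and haemoglobin genes were too low to be measured in any bin.

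Germ cell genes of the X and Y chromosomes lay above 0 in KI in each bin that measured them, and none passed 2-fold. In the Piwil1-low bin 8 of 8 were above 0 with a median of 0.32, between Akap4 at 0.22 and Cypt3 at 0.45. In the intermediate bin 9 of 9 were above 0 (median 0.26) and in the protamine-rich bin 9 of 9 (0.14). The list as first drawn also held Cypt4, which lies on chromosome 9 and had 0.32, 0.38 and -0.02 in these bins. With it, the Piwil1-low median ran from 0.05 to 0.41 over the alternative settings. The X chromosome gave 0.752% of UMIs in KO, 0.977% in KI and 0.718% in WT in the Piwil1-low bin, and 0.0979%, 0.0602% and 0.0879% in the spermatocyte-range bin. Early round spermatid markers summed to 2342 CPM in KO and 2687 in KI in the Piwil1-low bin, and the part of the mixture of stages in the X share was not tested.

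Mitochondrially encoded genes differed in direction by bin and setting. In the intermediate bin 11 of 11 were above 0 with a median of 0.54, which ran from -2.81 to 0.86 over the alternative settings, and 85.6% of the mt-Cytb UMIs of KI there came from 1 barcode. In the protamine-rich bin 9 of 9 were below 0 with a median of -0.58, which ran from -2.14 to 0.07, the last with bin edges of 1% and 4%. There mt-Cytb had 176 CPM in KO, 78.8 in KI and 106 in WT (-1.15) and mt-Nd4 88.5, 41.9 and 61.4 CPM (-1.06), and mt-Nd4 was found in 21.5% of KO and 17.2% of KI barcodes. Of the mt-Cytb UMIs of KI in the protamine-rich bin, 27.3% came from 1 barcode. In the spermatocyte-range and Piwil1-low bins 0 of 12 passed 2-fold.

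**Figure D4:**
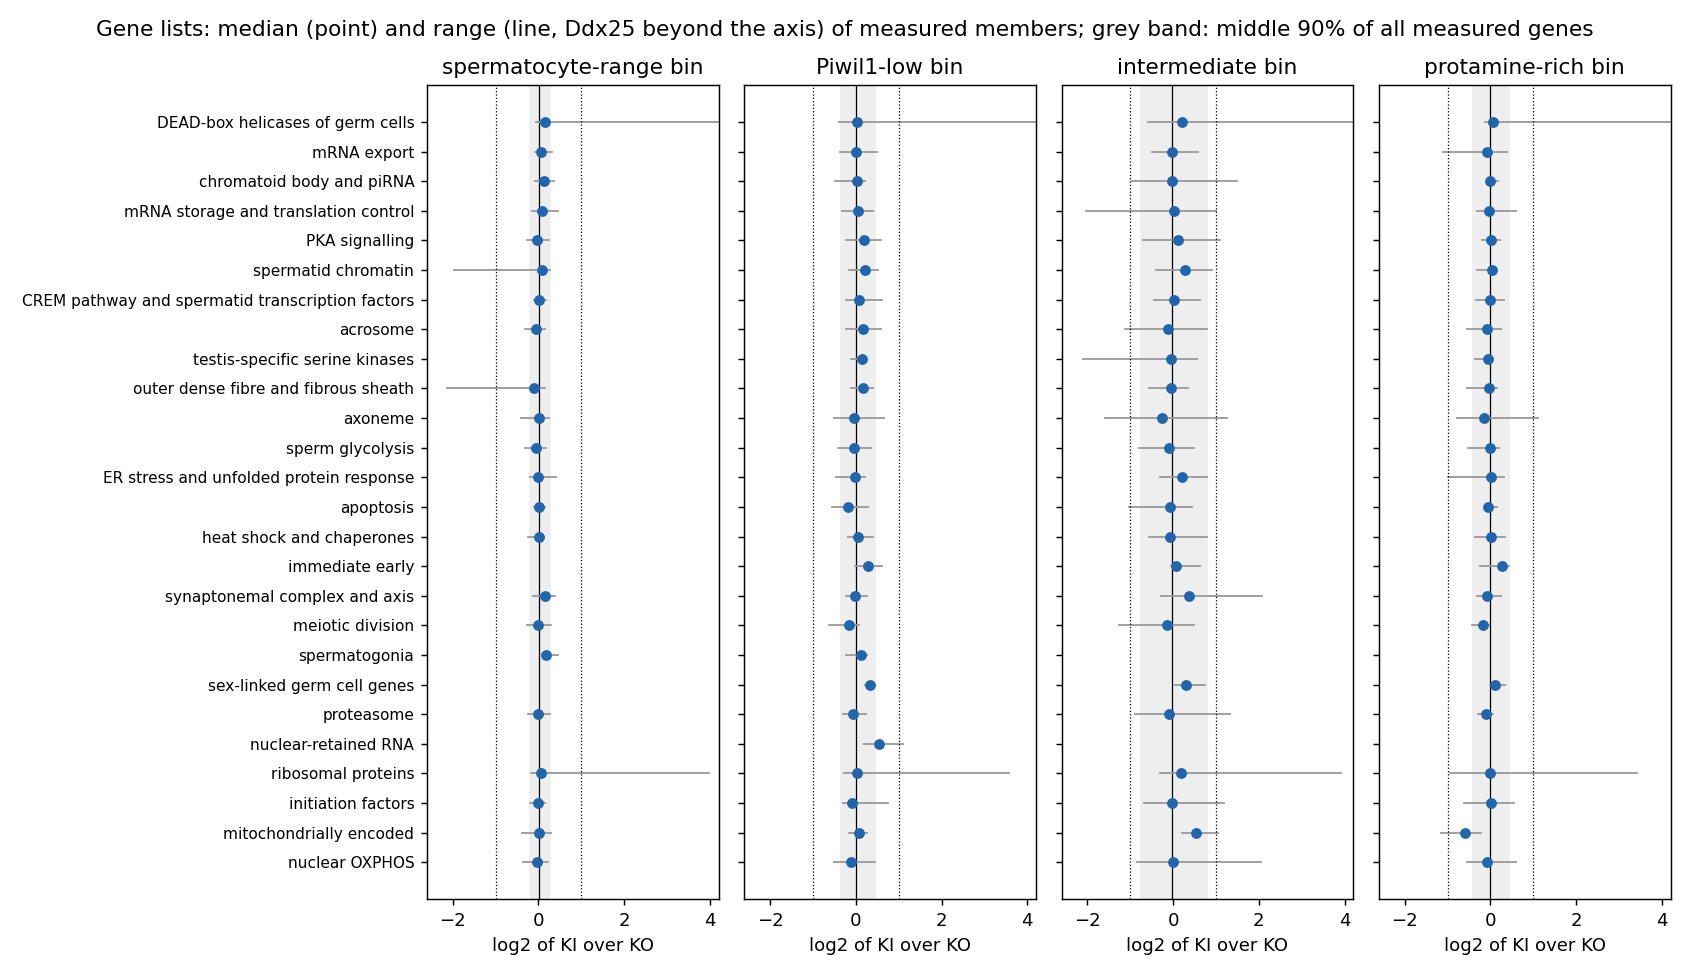
Median (point) and range (line) of the log2 ratio of KI over KO for the measured members of each gene list in the 4 bins, with the middle 90% of all measured genes in grey and 2-fold as dotted lines. Lists with 2 or fewer measured genes in a bin are not drawn there. The medians drawn sit inside the grey band except for mitochondrially encoded genes in the protamine-rich bin (-0.58) and nuclear-retained RNAs in the Piwil1-low bin (0.55). The long lines of the helicase and ribosomal lists are Ddx25 and Rpl29.

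A grouping by chromosome was examined after the values were seen and is given as a description. Chromosome 9, which carries Ddx25, had a larger percentage of its measured genes apart than the other chromosomes together. Leaving out Ddx25, 3 of its 329 measured genes (0.912%) were 2-fold apart in the spermatocyte-range bin against 17 of 5191 (0.327%) elsewhere. The counts were 9 of 348 (2.59%) against 25 of 5689 (0.439%) in the Piwil1-low bin, 26 of 317 (8.20%) against 259 of 5293 (4.89%) in the intermediate bin and 9 of 264 (3.41%) against 33 of 4385 (0.753%) in the protamine-rich bin. Its share ranked 1, 1, 2 and 1 among the chromosomes with at least 50 measured genes. The counts are small, with chromosome 6 next in the spermatocyte-range bin at 2 of 266 (0.752%). The same gene can count in several bins, as Rpl29 and Pccb do. With a limit of 1.5-fold chromosome 9 ranked 2, 2, 1 and 1, at 3.95%, 7.76%, 22.7% and 9.85%.

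Of the genes within 2 Mb of Ddx25, 7, 8, 12 and 11 were measured in the 4 bins and 0 were 2-fold apart in each, with log2 ratios from -0.18 to 0.28, from -0.32 to 0.38, from -0.79 to 0.91 and from -0.16 to 0.41. Between 100 and 110 Mb lay 1300017J02Rik, Rpl29 and Tex264, all 3 of the spermatocyte-range bin, Pccb, Rpl29 and Zmynd10 of the Piwil1-low bin, and Pccb, Rpl29 and Atp2c1 of the protamine-rich bin. Measured genes of that window numbered 55, 55 and 45 in these bins, and 5 of 54 were apart in the intermediate bin. Between 40 and 50 Mb lay C030014I23Rik, Cd3d, Gm39327 and Dscaml1 of the protamine-rich bin, 4 of 26 measured there. In the spermatocyte-range, Piwil1-low and intermediate bins 0 of 26, 1 of 30 and 7 of 30 genes measured between 40 and 50 Mb were apart. Others lay elsewhere on the chromosome, such as Fat3, Acsbg1, 4930461G14Rik, Myo1e and Rsl24d1 of the Piwil1-low bin.

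**Figure D5:**
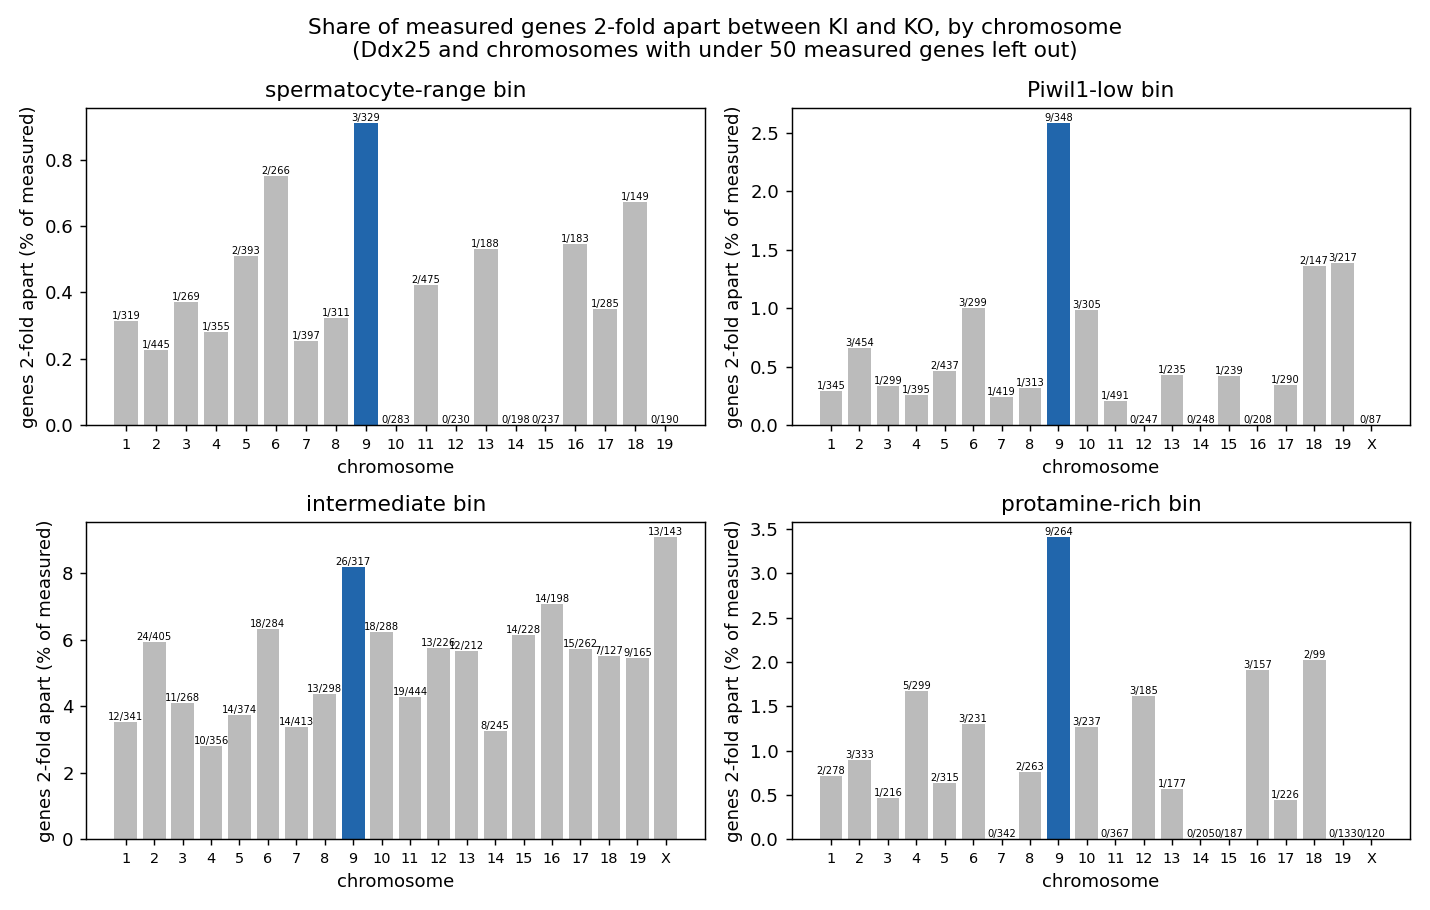
Percent of measured genes 2-fold apart between KI and KO on each chromosome in the 4 bins, with the counts above the bars, chromosome 9 in blue, and Ddx25 and chromosomes with fewer than 50 measured genes left out. Chromosome 9 is the highest bar at 0.912%, 2.59% and 3.41% in the spermatocyte-range, Piwil1-low and protamine-rich bins, and second to X (9.09%) in the intermediate bin.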

How the data were processed

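The authors deposited raw UMI counts per gene and barcode for each library, as an unfiltered matrix of 31053 genes and 6794880 barcodes. Reads had been counted on mm10 with Cell Ranger, given as version 2.1.1 in the submitters' processing notes and as version 4 in the file headers. The counts had not been normalized, and 0 columns of other samples or of the authors' comparisons were used.

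Barcodes were filtered and binned as the report states, the mitochondrial limit removing 61 KO and 79 KI barcodes, and counts were summed per library and bin. Genes were matched by symbol as the files give them, and positions come from the GENCODE M21 annotation of GRCm38. Ratios carry exact conditional binomial intervals, levels exact Poisson intervals and shares Clopper-Pearson intervals at 95%. The floor for a count of 0 was 3 UMIs. With 1 library per genotype no test was run. The script was tested on simulated data. Named genes were Ddx25, the 6 highest and 6 lowest in each bin with a mean of at least 50 CPM, list members past 2-fold or at the ends of a list, and genes at 0 in KI or KO with at least 100 UMIs in the other. Genes named beyond this rule were chosen after their values were seen. The members, bins and lists were chosen with earlier results of these data known. Scrublet was run in scanpy 1.11.5 and TMM factors in edgeR 4.0.16, and intervals and tables were made with scipy 1.17.1 and pandas 2.3.3 in Python 3.11.15. In all, 20 alternative settings were tried. 1 gene that the naming rule picked is not reported here.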

Additional observations from a re-analysis of the deposited data

Results flagged for a closer look

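Tex264 was 2-fold apart in opposite directions in a pair of bins. Its log2 ratio of KI over KO was -1.20 in the spermatocyte-range bin and 1.34 in the intermediate bin, or -0.56 and 1.21 once barcodes were thinned to 4000 UMIs, and the difference between the bins was not tested. mt-Cytb did the same, with 1.04 in the intermediate bin and -1.15 in the protamine-rich bin, and 85.6% of its KI UMIs in the intermediate bin came from 1 barcode. This difference was not tested either.

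The barcodes of 200 to 500 UMIs, which entered none of the 4 bins, carried 23 Ddx25 UMIs in KO and 2133 in KI, and 2195 Klrb1 UMIs in KI beside 2 in KO.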

How the results depend on the processing

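The counts of genes 2-fold apart were 5, 26, 159 and 20 higher and 16, 9, 127 and 23 lower in KI in the spermatocyte-range, Piwil1-low, intermediate and protamine-rich bins. With no minimum level they were 42, 338, 2502 and 277 higher and 588, 75, 2648 and 566 lower, and with a minimum of 100 CPM 1, 5, 16 and 5 higher and 0, 2, 8 and 4 lower. A pseudocount of 10 gave 15 and 86 higher in the Piwil1-low and intermediate bins and 4, 63 and 12 lower in the Piwil1-low, intermediate and protamine-rich bins. Thinning to 4000 UMIs gave 20, 123, 810 and 291 higher, and 572 and 73 lower in the intermediate and protamine-rich bins. In the spermatocyte-range bin, the lower count was 8 with edges of 0.25% and 1%, and 9 each with a Piwil1 limit of 0.03%, without Scrublet doublets, with 10% free RNA off and with the free RNA of barcodes of 200 to 500 UMIs off, and the higher count was 9 with both parts of the bin weighted equally. In the Piwil1-low bin, the higher count was 16 under a mitochondrial limit of 5%, 10 without somatic barcodes and 46 with 10% free RNA off, and the lower count 15 under TMM scaling. In the intermediate bin, the counts higher and lower were 508 and 545 from 2000 UMIs on, 36 and 196 with edges of 0.25% and 1%, 40 and 252 with 1% and 4%, and 275 and 197 without the top 5% of barcodes. There the lower count was 286 under the 5% mitochondrial limit, and the higher count 376 with both parts weighted equally and 323 without the largest barcode. In the protamine-rich bin, the lower count was 37 with edges of 0.25% and 1%, 14 without the top 5% of barcodes, when 32 were higher, 14 without Scrublet doublets, 44 with 10% free RNA off and 45 with both parts weighted equally. The causes were not tested.

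Other counts stayed within 1.5 times. A minimum of 8000 UMIs, median-of-ratios scaling and leaving out shared barcodes moved none of them. Ddx25 was 2-fold higher in KI under all 20 settings, with a log2 ratio over all kept barcodes from 3.38 to 6.597. Values under these settings were compared with their counting interval for the highest and lowest genes that the naming rule picked in each bin. Of these values, 774 stayed within the interval, 182 moved and 4 turned sign. Apoe turned sign in the Piwil1-low bin without somatic barcodes (-0.031). In the intermediate bin, Dcn did so from 8000 UMIs on (-4.05) and without somatic barcodes (-3.86), and Rpl10a with edges of 1% and 4% (-1.04). Genes named in other ways were not in this count, among them Neat1, which turned sign in the Piwil1-low bin without somatic barcodes. Apoe and Dcn are listed somatic markers, so leaving out somatic barcodes lowers them by design. Taking off the free RNA of barcodes of 200 to 500 UMIs and leaving out the largest barcode were chosen after seeing the data. No paired analysis was possible because each genotype has 1 library. Depth limits the intermediate bin most, with 540667 KI UMIs in 24 barcodes.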

Other observations

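A few genes were at 0 UMIs over all kept barcodes of 1 mutant library and at 100 or more in the other. Klrb1 had 1716 UMIs in KI, 0 in KO and 1845 in WT. Gm19589 ran the opposite way, with 0 UMIs in KI, 165 in KO and 298 in WT. Ccl6 and Retnla, secreted proteins of myeloid cells, had 141 and 147 UMIs in KI, 0 in KO, and 5 and 2 in WT, and Hba-a1, a haemoglobin chain, had 134 in KO and 0 in KI and WT. Macrophage markers in the Piwil1-low bin, higher in KI like Ccl6 and Retnla, summed to 105 CPM in KO and 410 in KI, and their part in these values was not tested.

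In the protamine-rich bin, 1700029N11Rik had 54.2 CPM in KO and 0.538 in KI, and Gm31545 0.513 CPM in KO and 54.6 in KI. These non-coding transcripts lay below the mean of 50 CPM that the naming rule asks for and were chosen after their values were seen.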
